A study of Mus musculus with 2 samples.

Results

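The genes described here are the mouse MHC genes and the machinery that loads their products: every feature whose symbol starts with H2-, plus B2m, Cd74, Ciita, Nlrc5, Tap1, Tap2, Tapbp, Psmb8, Psmb9, Psmb10, Erap1 and Ifi30. Of the 46 genes so named, 45 matched a feature among the 31053 in the count matrices, and Ifi30 is not analysed here. They fall into 3 genes of classical class I (H2-K1, H2-D1 and B2m), 7 of class I peptide supply, 22 non-classical class I genes, 4 class II chain genes, 6 genes of class II loading, 2 regulators and H2-Ke6, which carries the prefix for its position but is known as a hydroxysteroid dehydrogenase. The cells were live CD45-positive cells sorted from tumours of mice bearing AB1-HA, a mouse mesothelioma line, and read with 10x Genomics 3-prime chemistry. One group had received a control antibody and the other an antibody against VEGF, the vascular growth factor. The labels give no strain, age, dose or time, and do not say how many mice stand behind a library. With 1 library per group there was no replicate and no test, so each difference describes these 2 libraries, and the exact 95% intervals cover counting error only.

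MHC class I molecules, made of a heavy chain (H2-K1, H2-D1) and beta-2-microglobulin (B2m), show peptides from inside the cell to CD8 T cells. The immunoproteasome subunits Psmb8, Psmb9 and Psmb10 cut these peptides, the transporter Tap1-Tap2 carries them into the endoplasmic reticulum, Erap1 trims them and tapasin (Tapbp) helps to load them. Class II molecules (H2-Aa with H2-Ab1, and the beta chain H2-Eb1) show peptides taken up from outside to CD4 T cells in professional antigen-presenting cells. Their groove is blocked by the invariant chain Cd74 until H2-DM exchanges its remnant for a peptide, and H2-DO holds H2-DM back. Ciita is the master activator of class II genes and Nlrc5 that of class I genes, and both act through promoter elements known as the X and Y boxes.

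Those boxes can be read in the promoters of the genes measured here. RefSeq promoter sequences (GRCm38.p6, 250 bases before to 50 after a start) were held for 38 of the 45 genes. The letters NACNGATG, a core of the X box, followed on the same strand 30 or 31 bases later by ATTGG, the Y box, stood before the start in 9 of these genes and in 11 of all 32851 promoters (0.0335%). Those letters and that distance were chosen after these promoters had been read, so the count is a description. In 3 of the 9 the stretch overlapped an exon of the GENCODE annotation and is not shown. The stretches around both motifs are shown for 2 class II genes, 1 loading gene and 1 non-classical class I gene. They were picked by these letters, so the likeness of the capitals follows from the choice. H2-Aa is also shown, which held the ATTGG letters at a like place but no such pair. Each is written 5′ to 3′ on the gene's strand, with the motif letters in capitals.
H2-Eb1: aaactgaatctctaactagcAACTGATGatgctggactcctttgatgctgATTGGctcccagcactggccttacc
H2-Eb2: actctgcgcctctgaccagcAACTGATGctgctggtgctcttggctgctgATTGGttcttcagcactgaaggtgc
H2-DMb2: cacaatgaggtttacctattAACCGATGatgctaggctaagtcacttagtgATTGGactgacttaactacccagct
H2-Q7: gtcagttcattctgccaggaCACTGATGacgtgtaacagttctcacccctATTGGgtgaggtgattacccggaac
H2-Aa: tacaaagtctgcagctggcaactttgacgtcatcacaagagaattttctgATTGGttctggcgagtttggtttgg
They lie before the RefSeq starts on chromosome 17, H2-Eb1 at chr17:34305758-34305832, H2-Eb2 at chr17:34325525-34325599, H2-DMb2 at chr17:34145108-34145183, H2-Q7 at chr17:35439065-35439139, all on the plus strand, and H2-Aa at chr17:34287847-34287921 on the minus strand. The GENCODE span of H2-DMb2 starts further upstream, and its stretch lies inside that span but in no exon. The first letter of the X-box motif stood 89 bases before the start of H2-Eb1, 121 before that of H2-DMb2 and 70 before that of H2-Q7. Anywhere in the promoter and on either strand, NACNGATG occurred in 9.83% of all promoters and ATTGG in 37.4%. Among the 41 promoters held for the 38 genes, the shares were 48.8% and 82.9%. A pair like that of H2-Eb1 also stood before H2-Eb2, which had 21 UMIs in all, and one before H2-D1, among the most abundant of the 45.

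All 34 genes with the H2- prefix lie on chromosome 17 in the GENCODE annotation of GRCm38, together with Tap1, Tap2, Tapbp, Psmb8 and Psmb9. Neighbouring class I genes are near copies. Of the 90-base stretches in the last 500 bases of their transcripts, where 3-prime reads fall, 26.9% were shared with another gene for H2-Q6, 8.93% for H2-D1, 2.31% for H2-K1 and 0% for H2-Aa, H2-Ab1 and H2-Eb1, so single values for H2-Q6, H2-D1 and H2-DMb1 (15.9%, shared with H2-DMb2) are less certain. The reference carries C57BL/6J alleles, whereas AB1 is known as a BALB/c line with another MHC haplotype, and how many reads of other alleles were lost or placed on a neighbouring gene was not tested.

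Over all barcodes, the control library held 233687412 UMIs (unique molecular identifiers, each 1 captured transcript) and the anti-VEGF library 213948867. The 10805 and 8159 kept cells held 223974693 and 206451897 of them. Cells were assigned to classes by marker genes, none of them among the 45. They gave 5735 control and 4365 anti-VEGF macrophages (C1qa, Csf1r, Adgre1, Cd68), 177 and 240 monocyte-like cells (macrophage markers with Ly6c2 and Ccr2), 1541 and 884 Acp5-high cells (Acp5, Ctsk and Mmp9, known from osteoclasts), 493 and 626 collagen-expressing cells, 45 and 22 mature dendritic cells (Ccr7, Ccl22), 23 and 10 type 1 dendritic cells (Xcr1, Clec9a), 53 and 250 neutrophils, 70 and 52 T cells and 36 and 12 NK cells. Ptprc, which encodes CD45, was found in 11.8% and 12.1% of collagen-expressing cells against 82.6% and 90.5% of macrophages, so the sort label was not borne out for that class. Cells meeting 2 lineages (229 and 241) or no gate (2372 and 1445, at medians of 1338 and 3238 UMIs) were left out of the class values. Levels are CPM, in which the UMIs of a gene are divided by all UMIs of the class and scaled in the usual way. Since 3-prime chemistry counts 1 end per transcript, they were not divided by gene length.

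Type 1 dendritic cells, which take up dead cells and present to T cells, carried the class II chains at the highest level among the classes with at least 10 cells in each library. The summed level of H2-Aa, H2-Ab1 and H2-Eb1 was 23506 CPM (interval 23113 to 23904) in control and 28338 CPM (27682 to 29005) in anti-VEGF cells, 12.6 and 17.1 times the macrophage level. Monocyte-like cells followed with 5425 and 5826 CPM, and macrophages had 1872 and 1654 CPM. Mature dendritic cells had 4118 (control) and 9674 CPM (anti-VEGF), so that they stood below monocyte-like cells in one and above them in the other. The 5 control and 2 anti-VEGF type 2 dendritic cells had 29176 and 13257 CPM, too few cells to place in the order. The 10 control plasmacytoid dendritic cells had 4931 CPM, beside the 5425 CPM of monocyte-like cells. Acp5-high cells had 312 and 404 CPM, T cells 411 and 264 (without 1 control cell, which held 74.0% of the UMIs, 109.6), neutrophils 201 and 691 (without 1 anti-VEGF cell, 319), NK cells 168 and 105 and collagen-expressing cells 84.9 and 123 CPM. The control interval of NK cells (134 to 209 CPM) overlapped that of neutrophils (141 to 278 CPM), so these neighbours in the order do not differ beyond counting error.

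**Figure D1:**
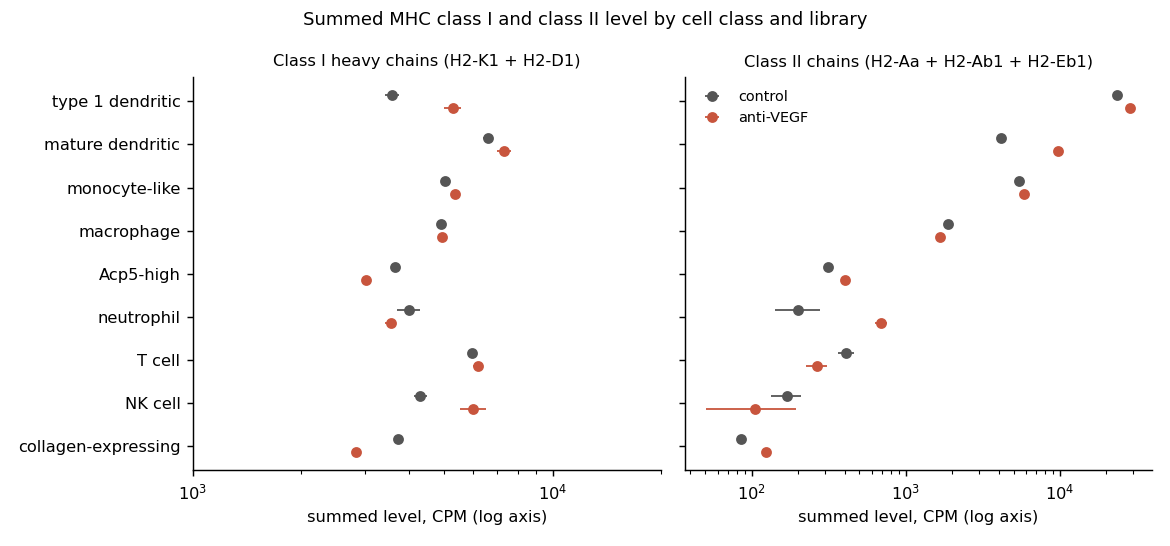
Summed level of the class I heavy chains (left) and of the class II chains (right) in 9 cell classes, in CPM on log axes, for the control (grey) and anti-VEGF (red) libraries; bars are exact 95% counting intervals. Class II runs from 84.9 CPM in collagen-expressing to 28338 CPM in type 1 dendritic cells, while class I stays between 2843 and 7335 CPM.

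Within a class, class II was very unevenly spread over cells. The median control macrophage had 114 CPM of class II chains and the median anti-VEGF macrophage 85.2, far below the summed levels. The 10% of macrophages with the most class II UMIs held 77.0% of all class II UMIs of the class in control and 81.3% in anti-VEGF cells. This ranking is by UMIs, so the depth of a cell also enters it. Of the macrophages, 25.3% and 25.1% had no class II UMI. Macrophages above 10000 CPM, a level reached by 21 of 23 control type 1 dendritic cells, numbered 422 of 5735 (7.36%, interval 6.70 to 8.06) and 257 of 4365 (5.89%, 5.21 to 6.63), and they held 53.7% and 52.6% of the UMIs. These cells carried macrophage markers at 14592 and 13732 CPM against 11166 and 8992 in the other macrophages, and type 1 dendritic markers at 10.9 and 11.7 against 8.05 and 7.44 CPM. They also carried mature dendritic markers at 39.9 and 21.7 against 9.26 and 7.81 CPM. Type 2 dendritic markers were at 10.3 and 5.52 against 2.75 and 1.94, and B-cell markers at 6.53 and 6.23 against 3.06 and 1.35 CPM. The part of these markers in the result was not tested. Class I, by contrast, was spread more evenly: the 10% of macrophages with the most class I UMIs held 27.0% and 26.0% of them. The median cells had 4879 and 4684 CPM of class I.

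**Figure D2:**
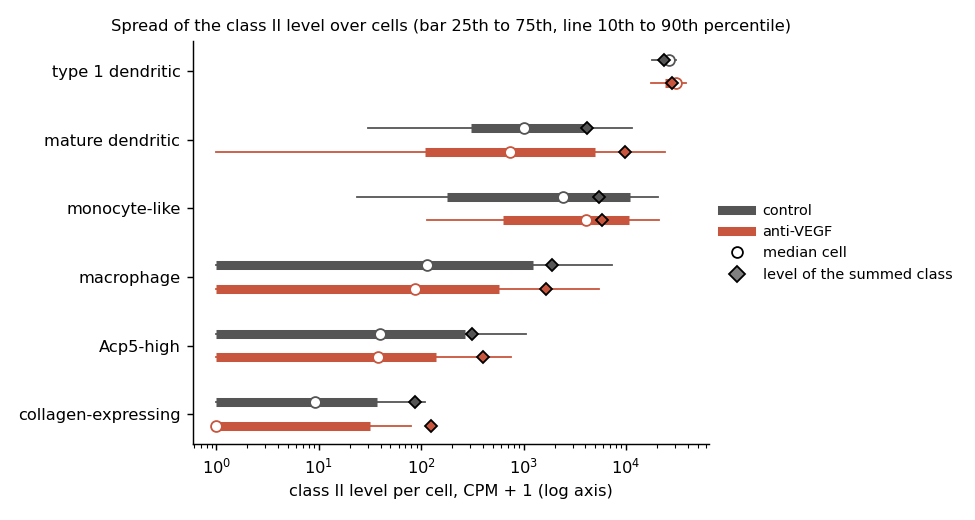
Class II level per cell (CPM + 1, log axis) in 6 cell classes; thick bars span the 25th to 75th and lines the 10th to 90th percentile of cells, circles mark the median cell and diamonds the level of the summed class. In macrophages the median cell (114 and 85.2 CPM) lies far below the summed level (1872 and 1654 CPM), while in type 1 dendritic cells both lie together.

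The mature dendritic class, whose genes Ccr7 and Fscn1 mark cells on their way to lymph nodes, showed the same unevenness in small numbers. Its summed class II level was 2.35 times as high in the anti-VEGF library, but the median cell had 1004 (control) and 726 CPM (anti-VEGF), the other way round. Of its cells, 7 of 45 and 4 of 22 exceeded 10000 CPM, and these held 61.5% and 86.9% of the UMIs. Without them the levels were 1814 and 1726 CPM. The mature dendritic markers summed to 7618 (control) and 3175 CPM (anti-VEGF) in the cells above 10000 CPM, against 6379 and 7782 in the others. The type 1 dendritic markers summed to 98.5 and 351 CPM against 120 and 181. The part of these markers in the result was not tested.

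The 3 class II chains kept like proportions in macrophages, monocyte-like and type 1 dendritic cells. H2-Aa made up 44.2% and 44.3% of the class II UMIs of macrophages, H2-Ab1 29.9% and 29.9%, and H2-Eb1 25.9% and 25.8%, and type 1 dendritic and monocyte-like cells had H2-Ab1 at 27.8% to 32.03%. H2-Ab1 took a smaller part in mature dendritic cells, with 15.4% in control and 22.4% in anti-VEGF cells. It took a larger one in control NK cells, where it had 58 of 83 class II UMIs (69.9%), found in 16 of 36 cells, and 8 of the 10 class II UMIs of anti-VEGF NK cells were also H2-Ab1. At 118 and 84.1 CPM, H2-Ab1 in NK cells was above H2-Aa at 40.6 and 21.0 CPM, the reverse of the order by CPM in macrophages. By the share of cells with a UMI, H2-Ab1 was above H2-Aa in macrophages too. It was found in 60.8% and 62.7% of them, against 55.8% and 48.8% for H2-Aa. The 9 macrophage markers in NK cells summed to 353 and 126 CPM.

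Cd74, the chaperone of the class II chains, followed them. It reached 19528 and 20528 CPM in type 1 dendritic cells, 5501 and 5780 in monocyte-like cells, 2268 and 1904 in macrophages, 637 and 664 in Acp5-high cells and 82.6 and 139 in collagen-expressing cells. Across macrophages thinned to 5000 UMIs each, the rank correlation of class II with Cd74 was 0.79 (4762 control cells) and 0.73 (4167 anti-VEGF cells), and across monocyte-like cells 0.94 in both. It was lower across Acp5-high cells (0.63 and 0.62) and lowest across collagen-expressing cells (0.29 and 0.31). The correlation of class I with class II across macrophages was 0.13 and 0.21. These describe cells of 1 library each, which share its depth and handling.

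The peptide exchange factor H2-DM split less sharply between classes than its regulator H2-DO. H2-DMa had 962 and 1099 CPM in type 1 dendritic cells, 429 and 463 in monocyte-like cells and 231 and 185 in macrophages, but 92.0 and 181 in mature dendritic cells. Within the mature dendritic class, H2-DMa was at 197 and 573 CPM in the cells above 10000 CPM of class II and at 76.8 and 38.1 CPM in the others. H2-DMb1 was at 18.7 and 119 CPM in mature dendritic cells against 72.9 and 62.3 in macrophages, so that its order differed between the libraries, on 12 and 34 UMIs in 4 cells each. H2-Ob, the beta chain of H2-DO, had 62.0 and 55.9 CPM in type 1 dendritic cells and 0.36 and 0.374 in macrophages. Its partner H2-Oa had 74.0 and 104 CPM in type 1 dendritic cells, 64.9 in control plasmacytoid dendritic cells and 22.6 and 24.3 CPM in T cells, which had no H2-Ob UMI (a count of 0 allows up to 4.52 and 4.85 CPM). This limit, here and at every other count of 0, is 3 counts of the class total, a rule apart from the exact intervals. The T-cell counts were 15 and 15 UMIs, in 14 of 70 and 10 of 52 cells.

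Ciita had 164 CPM in type 1 dendritic cells of either library (intervals 132 to 200 and 118 to 222). Monocyte-like cells had 13.2 and 18.5 CPM, macrophages 6.39 and 5.78, Acp5-high cells 2.93 and 2.96, and neutrophils had no Ciita UMI (up to 16.7 and 3.74 CPM). Mature dendritic cells had 2 and 3 UMIs, or 3.12 (0.378 to 11.3) and 10.5 CPM (2.16 to 30.6). By cells above 10000 CPM of class II against the others, that was 12.3 against 1.79 CPM in control cells, 1 UMI on each side, and 39.0 CPM against no UMI in anti-VEGF cells. Among thinned macrophages, the 141 control cells with a Ciita UMI had a mean of 59.6 class II UMIs per 5000 (58.3 to 60.9) against 9.38 (9.29 to 9.47) in the 4621 without, and the 99 anti-VEGF cells with one had 62.4 against 7.28. Their class I means were 27.9 against 25.1 and 33.1 against 24.9. Macrophages with an Nlrc5 UMI had 27.5 against 25.05 class I UMIs in control and 28.3 against 24.97 in anti-VEGF cells. Their class II means were 18.1 against 10.6 and 18.9 against 8.25. The class I difference was smaller by Nlrc5 than by Ciita in the anti-VEGF library only. In control the means with a UMI overlapped (26.7 to 28.3 and 27.1 to 28.8). In Acp5-high cells the class I fold was 1.18 and 1.39 by Nlrc5, against 1.15 and 1.15 by Ciita. In anti-VEGF monocyte-like cells it was 0.98 against 1.03.

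Class I varied far less between classes than class II. The sum of H2-K1 and H2-D1 was highest in mature dendritic cells (6617 and 7335 CPM) and T cells (5987 and 6187), near 5000 CPM in monocyte-like cells (5016 and 5356) and macrophages (4889 and 4932), and lowest in Acp5-high (3635 and 3019) and collagen-expressing cells (3722 and 2843) among the classes with at least 50 cells in each library. T cells and NK cells of the anti-VEGF library (5520 to 6516 CPM for NK cells) did not differ beyond counting error. H2-D1 gave 62.0% and 64.4% of this sum in macrophages and 57.3% and 57.2% in T cells. B2m went with the heavy chains, at 4503 and 4921 CPM in mature dendritic cells, 2543 and 2644 in macrophages and 1461 and 1129 in collagen-expressing cells.

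The immunoproteasome subunits had their highest levels in type 1 dendritic cells. Psmb9 was at 842 and 975 CPM there, 427 and 646 in mature dendritic cells, 218 and 192 in macrophages and 86.2 and 57.7 in collagen-expressing cells, and Psmb8 was at 1059 and 1039, 808 and 907, 428 and 388 and 222 and 163 CPM in the same classes. Psmb10 did not share this peak, with 131 and 152 CPM in type 1 dendritic cells against 163 and 144 in macrophages. Tap1 was highest in type 1 dendritic cells (301 and 383 CPM) and lay at 72.3 and 73.5 CPM in macrophages. Tap2 was at 42.9 and 41.4 CPM in macrophages but at 99.8 and 91.6 in Acp5-high cells, so its order against Tap1 (61.1 and 55.2 CPM there) was reversed between these classes. Tapbp was at 172 and 178 CPM and Erap1 at 26.0 and 23.2 CPM in macrophages. Tap1 and Psmb9 overlap on opposite strands at their starts, and the labels do not say whether counting kept the strands apart.

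Of the 22 non-classical genes, 11 had at least 100 UMIs over both libraries. H2-Q7, which encodes Qa-2, was highest in mature dendritic cells (446 and 576 CPM) and T cells (488 and 515), against 175 and 159 in macrophages and 46.1 and 34.3 in collagen-expressing cells. H2-T23, which encodes Qa-1, the ligand of NKG2A receptors, reached 519 CPM in control plasmacytoid dendritic cells and was at 102 and 122 in macrophages. H2-T22, a ligand of some gamma-delta T-cell receptors, was highest in T cells (203 and 180 CPM), and H2-M3, which presents formylated peptides, was at 60.6 and 60.5 CPM in macrophages. H2-Q4 had 30.05 and 31.1 CPM, H2-Q10 9.01 and 8.59, H2-Q6 8.24 and 7.57, H2-T24 5.58 and 6.17, H2-Q2 1.09 and 1.13 and H2-Q1 0.668 and 0.618 CPM in macrophages.

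H2-M2 had another pattern from the rest of the family. It was found at 28.1 CPM (16.6 to 44.4) and 87.2 CPM (56.5 to 129) in mature dendritic cells, as 18 and 25 UMIs in 9 of 45 and 7 of 22 cells, and at 0.06 and 0.244 CPM in macrophages, 8 and 28 UMIs in 5 and 12 cells. Type 1 dendritic cells had none, which allows up to 5.16 and 12.0 CPM, and neither did monocyte-like cells (0.551 and 0.478) or collagen-expressing cells (0.151 and 0.11). A further 12 genes had under 100 UMIs: H2-Eb2 had 21 and H2-M5 16 over both libraries, H2-T3 9, H2-M10.1, H2-M10.2 and H2-M9 1 each, and H2-M1, H2-M10.3, H2-M10.4, H2-M10.5, H2-M10.6 and H2-M11 none.

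**Figure D3:**
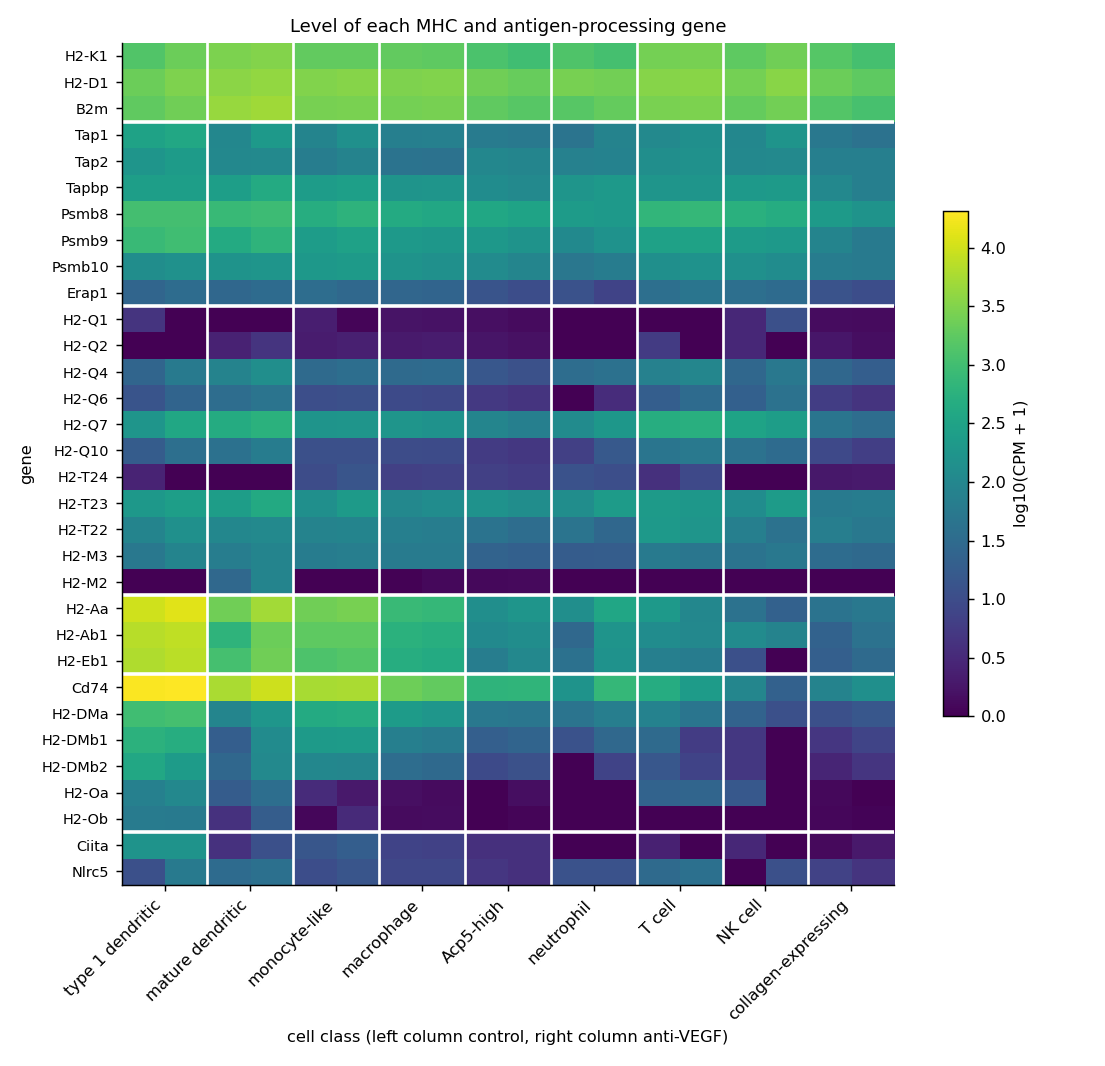
Level of 32 of the 33 genes with at least 100 UMIs (rows, H2-Ke6 left out; colour is log10 of CPM + 1) in 9 cell classes, with the control library on the left and the anti-VEGF library on the right of each pair; white lines part class I, class I processing, non-classical, class II, class II loading and regulator genes. Class I rows are even across classes, class II rows peak in type 1 dendritic cells, and H2-M2 stands out in mature dendritic cells at 28.1 and 87.2 CPM.

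Macrophage states, marked by genes outside the list and overlapping each other, differed in class II and in the supply of class I peptides. Macrophages with interferon-response genes (Rsad2, Ifit1, Isg15; 180 and 159 cells) had Tap1 at 167 and 157 CPM, H2-T22 at 168 and 166, H2-T24 at 19.9 and 20.5, Nlrc5 at 15.7 and 22.3 and Psmb10 at 303 and 262, where all macrophages together had 72.3 and 73.5, 70.5 and 66.7, 5.58 and 6.17, 7.16 and 7.32 and 163 and 144 CPM. Their heavy chains stood closer, at 5329 and 5445 CPM, and their class II chains were at 2055 and 2776 CPM. Hypoxic macrophages (Adm, Ndrg1, Slc2a1; 188 and 990 cells) had class II at 818 and 842 CPM and Psmb9 at 120 and 137 CPM, and Lyz1 macrophages (234 and 490 cells) class II at 714 and 481 CPM. Resident-like macrophages (Selenop, Folr2) had 1585 and 1624 CPM.

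Summed over strata of C1q level, class II in macrophages was highest where C1q was highest, although cell by cell the rank correlation was 0.13 and 0.14. From the lowest to the highest stratum, control macrophages had 575, 759, 1227, 1851, 2294 and 2529 CPM of class II. Anti-VEGF macrophages had 801, 872, 755, 1221, 1917 and 3131 CPM, so that the third stratum was their lowest. Class I went from 3975 and 3866 CPM in the lowest to 5691 and 6352 in the highest of the 6 strata. The highest stratum held 35.9% of control but 20.6% of anti-VEGF macrophages. The libraries crossed: class II was higher in the control in the third, the fourth and the fifth stratum and higher in the anti-VEGF library in the lowest 2 and in the highest.

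**Figure D4:**
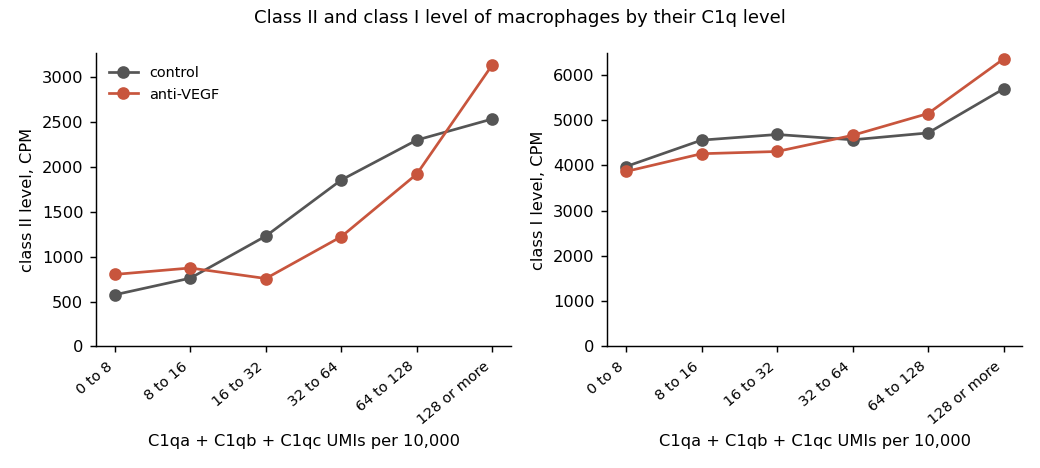
Class II (left) and class I (right) level of macrophages, in CPM from 0, against their summed C1qa, C1qb and C1qc UMIs per 10000, for the control (grey) and anti-VEGF (red) libraries; each point is 1 stratum of cells of 1 library. Class II goes from 575 and 801 CPM in the lowest to 2529 and 3131 CPM in the highest stratum, and the lines cross.

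Between the libraries, macrophages differed little. The class II sum was 0.884 times the control level in the anti-VEGF library and the class I sum 1.01 times. All 3 class II chains (ratios 0.877 to 0.886), Cd74 (0.839, interval 0.835 to 0.844), H2-DMa (0.80), H2-DMb1 (0.855), Psmb8 (0.906), Psmb9 (0.884) and Psmb10 (0.885) were lower, and H2-T23 (1.20, 1.17 to 1.23) and H2-D1 (1.05) higher. Of the 33 genes with at least 30 UMIs in the class, 2 passed the size rule (a ratio of 1.5 or more either way with an interval leaving out 1), where 11.6% of all 13768 genes did. They were H2-M2, at 8 and 28 UMIs (4.06-fold, 1.80 to 10.3), and H2-Oa, at 69 and 38 UMIs (0.639, 0.418 to 0.963), both below 1 CPM. The median log2 ratio of the list was -0.08, as over all genes (-0.08). Trimmed-mean (TMM) scaling moves every macrophage log2 ratio up by 0.11, which turns 6 of 31 genes from lower to higher (H2-K1, H2-T22, H2-Q1, H2-Q10, H2-M3 and Tap2, the first 2 with intervals that had left out 1) and leaves the class II sum at -0.07. With the anti-VEGF strata weighted to the control C1q mix, a setting added after the data were seen, the class II log2 ratio was 0.05 in place of -0.18. The states differed more. The class II sum was 0.673 times the control level (0.648 to 0.699) in Lyz1 and 0.843 times in cycling macrophages (Mki67, Top2a). It was 1.02 times in resident-like, 1.03 in hypoxic and 1.35 (1.31 to 1.39) in interferon-response macrophages.

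**Figure D5:**
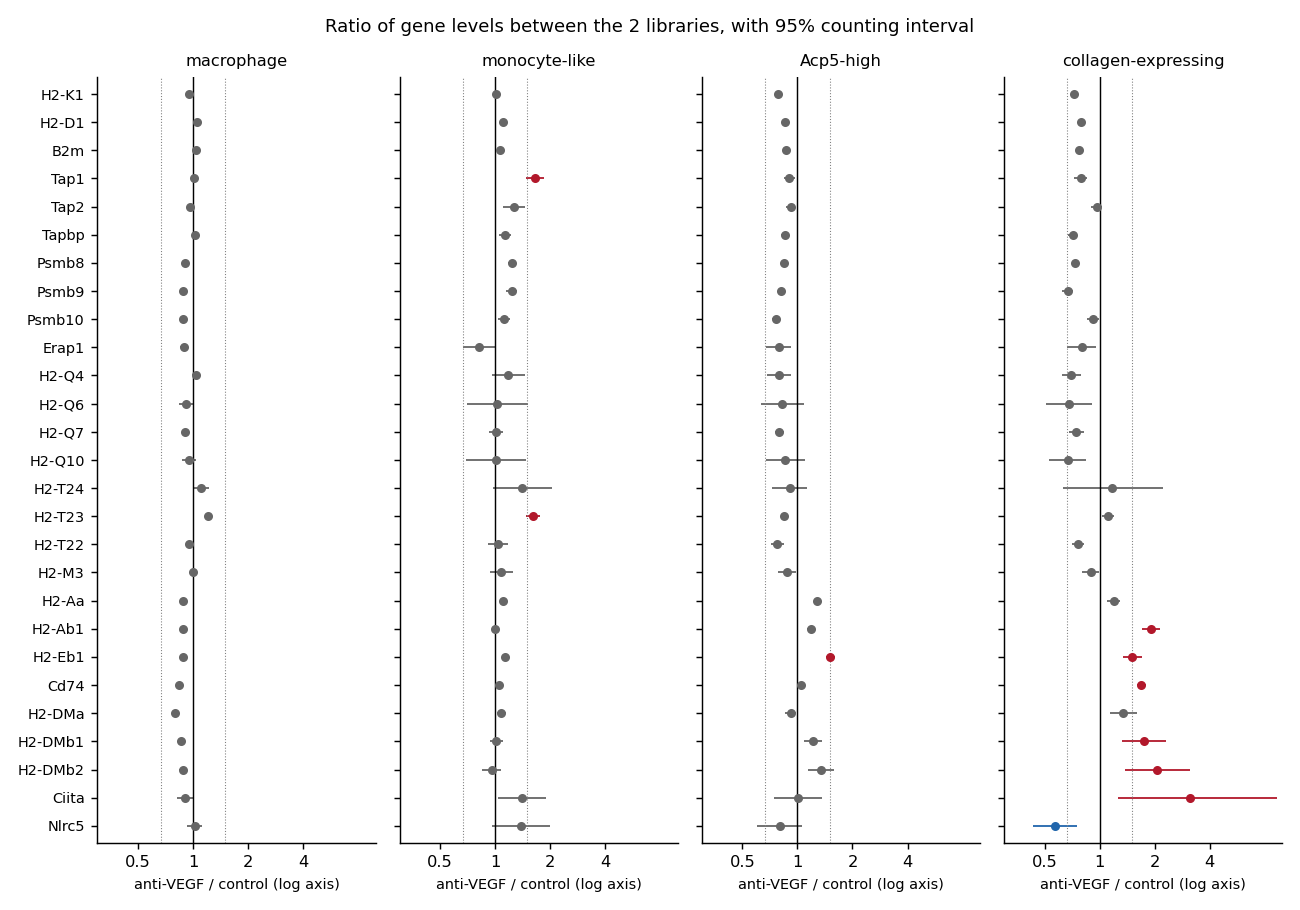
Ratio of the anti-VEGF to the control level (log axis) of genes with at least 30 UMIs in 4 cell classes, with exact 95% counting intervals; red and blue mark genes past 1.5-fold (dotted lines) higher and lower, and H2-M2, H2-Oa, H2-Ob, H2-Q1 and H2-Q2 are not drawn. Class I and processing genes lie below 1 in Acp5-high and collagen-expressing cells, and Tap1 (1.64) and H2-T23 (1.61) lie past 1.5 in monocyte-like cells.

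In monocyte-like cells, 24 of 28 genes had a higher level in the anti-VEGF library (median log2 ratio 0.12, against -0.06 over all genes). Over all 9862 genes, 4038 were higher. Tap1 was at 86.9 (control) and 143 CPM (anti-VEGF) (1.64-fold, 1.47 to 1.84), and H2-T23 at 139 and 224 CPM (1.61-fold, 1.47 to 1.76). These were the 2 genes past the size rule, where 9.9% of all 9862 genes passed it. Tap2 (1.26), Psmb8 (1.24) and Psmb9 (1.23) were also higher, with intervals above 1, and Ciita went from 13.2 to 18.5 CPM (1.40, 1.03 to 1.90). The class I sum was 1.07 and the class II sum 1.07 times the control level. Irf1, a transcription factor of the interferon response, passed the rule in the same cells (54.4 and 96.2 CPM, 1.77-fold). The median UMI count of these cells was 23438 (control) and 16385 (anti-VEGF). With every cell thinned to 5000 UMIs, the log2 ratio of Tap1 was 0.47 in place of 0.72 and that of H2-T23 0.95 in place of 0.69.

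In Acp5-high cells, class I and its supply were lower in the anti-VEGF library throughout. H2-K1 was at 1250 and 983 CPM (0.786, 0.774 to 0.798), H2-D1 at 2385 and 2036 (0.854), B2m at 1791 and 1542 (0.861) and Psmb10 at 118 and 89.8 (0.76, 0.723 to 0.799). All 7 processing genes and all 9 non-classical genes with at least 30 UMIs lay below 1, the latter with H2-Q2, H2-Q6, H2-Q10 and H2-T24 at intervals that held 1. None of these passed 1.5-fold, and 1 of the 29 genes did (H2-Eb1, 1.51 higher), where 5.65% of all 11730 genes passed. With every cell weighing the same, the log2 ratio of H2-Eb1 was -0.07 in place of 0.60, and it was 0.0026 with the stricter gate. The list's median log2 ratio was -0.18, against -0.03 over all genes, of which 6875 were lower. The class II sum went the other way, at 312 and 404 CPM. That difference lay in 6 cells of each library above 10000 CPM, which held 18.1% and 36.3% of the class II UMIs, and without them the levels were 257 and 260.1 CPM. With every cell weighing the same the class II log2 ratio turned from 0.37 to -0.14, and it was also -0.14 with the stricter gate. In these cells the macrophage markers summed to 7406 and 6474 CPM against 2716 and 2517 in the others, and Ccr2 was at 366 and 121 against 19.4 and 11.4 CPM. The type 2 dendritic markers summed to 22.5 (control) and 87.8 CPM (anti-VEGF), against 1.66 and 1.40 in the others, and their part in the result was not tested.

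Collagen-expressing cells showed the largest class I difference of the 4 classes. H2-K1 was at 1496 and 1080 CPM (0.722, 0.711 to 0.734), H2-D1 at 2226 and 1763 (0.792), B2m at 1461 and 1129 (0.773), Psmb9 at 86.2 and 57.7 (0.67), Tapbp at 102 and 72.2 (0.71) and the class I activator Nlrc5 at 6.01 and 3.44 (0.572, 0.432 to 0.756). All 7 processing genes were lower, with Tap2 at an interval that held 1, and 6 of 8 non-classical genes were too, while H2-T23 was 1.11 times as high and H2-T24 1.17 (0.626 to 2.23). Over all 11998 genes, 7467 were lower. The list's median log2 ratio was -0.23, against -0.07 over all genes. Of 28 genes, 7 passed the size rule, where 7.78% of all 11998 genes did. Nlrc5 was the 1 that was lower, and the other 6 belong to class II: Cd74 (82.6 and 139 CPM), H2-Ab1 (21.7 and 41.3), H2-Eb1 (19.5 and 29.4), H2-DMb1 (3.79 and 6.62), H2-DMb2 (1.77 and 3.62) and Ciita (6 and 26 UMIs). A single anti-VEGF cell above 10000 CPM held 13.2% of the class II UMIs and type 2 dendritic markers at 284 CPM, against 0.549 in the others, and without it Ciita was at 0.303 and 0.476 CPM and the class II sum at 84.9 and 107 CPM. The 10% of cells with the most class II UMIs held 84.4% and 91.0% of them, and the 9 macrophage markers summed to 237 and 231 CPM. Under a gate with doubled marker levels the class II difference turned round, to a log2 ratio of -0.07 in place of 0.53. Without the 1% of cells with the highest level, a setting added after the data were seen, it was 1.25.

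The smaller classes add values with wide cell-to-cell spread. Class I in type 1 dendritic cells was at 3581 and 5269 CPM (1.47-fold, 1.37 to 1.58), with median cells at 3326 and 4436 CPM, on 23 and 10 cells. In NK cells it was at 4286 and 6003 CPM, on 36 and 12 cells. T cells were at 5987 and 6187 CPM (1.03, 0.988 to 1.08). Class II in neutrophils was at 201 and 691 CPM, on 36 and 554 UMIs, of which 1 anti-VEGF cell held 54.3% of the latter, and without it the level was 319 CPM. Median neutrophils had no class II UMI in either library, and their depth was low, at medians of 2422 and 2213 UMIs.

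Of 26 further genes of the pathway, 1 of 26 passed the size rule in macrophages (the class II promoter factor Rfx5, 5.18 and 3.39 CPM), none of 26 in Acp5-high and 2 of 24 in collagen-expressing cells (Ctss, 1.51 higher, and Irf8, 0.663). Over all genes 11.6%, 5.65% and 7.78% passed it in these classes. The proteases that degrade the invariant chain were unlike each other in macrophages: Ctsl was at 1199 and 1751 CPM (1.46), Ctss at 1786 and 2055 (1.15) and Lgmn at 1719 and 1377 (0.801). The proteasome activator genes Psme1 and Psme2 were highest in mature dendritic cells, at 1115 and 1375 and at 806 and 1054 CPM. Over the 12 combinations of class and library with at least 50 cells, and among 13568 genes, those most like the class II sum by Pearson r of log2(CPM + 1) were Aif1 (0.98), Prcp (0.98), Cybb (0.98), Ms4a6d (0.96), Ctsc (0.96) and Cd86 (0.96). For the class I sum they were Syt11 (0.94), AU020206 (0.93), Fam46c (0.92), Gng2 (0.92), Il7r (0.92) and Myl6 (0.91). The combinations share 2 libraries, and the value is a description.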

How the data were processed

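For each barcode the authors deposited whole-number counts of UMIs for every gene, without normalisation, made with Cell Ranger 3.0.2 on mm10 per the submitters' processing notes (software 3.1.0 per the file headers). Genes, lists and promoter motifs were chosen with earlier results of these data known. Barcodes with at least 500 UMIs, 300 genes and at most 10% mitochondrial UMIs were kept (92.5% in each library), and 35 barcode sequences were found in both and treated as separate cells. Gates used marker detection and level, with thresholds set after marker counts were seen. No doublet caller was run, and cells of 2 lineages were left out.

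Counts were summed per class and divided by the class total (CPM), with exact Poisson intervals for levels, conditional binomial intervals for ratios and Clopper-Pearson intervals for shares, at 95%. List medians used a pseudocount of 1 CPM. Cells were thinned to 5000 UMIs (seed 7) for correlations and wherever the text says so. Other shares and counts of cells with a UMI are at full depth. A gene was named with at least 100 UMIs over both libraries and called past 1.5-fold when its interval left out 1 and it had at least 30 UMIs in the class. TMM factors came from edgeR 4.0.16 (R 4.3.3), the rest from Python 3.11.15 with SciPy 1.17.1. The ratio step was tested on simulated data. The result of 1 further gene of the pathway is not reported here.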

Additional observations from a re-analysis of the deposited data

How the results depend on the processing

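All values here are log2 ratios of the anti-VEGF to the control level unless named as counts. No paired analysis was possible because each group had 1 library. Leaving out the top 1% of cells and weighting to the control C1q mix were added after the data were seen. In macrophages the class I ratio was 0.029 with the stricter cell filter, -0.0036 thinned, -0.034 with every cell weighing the same, 0.12 with TMM and 0.085 with the C1q mix, and the class II ratio was -0.15, -0.34, -0.29, -0.067 and 0.054 under the same settings, -0.25 with the stricter gate and -0.22 without the top 1%. The 2 genes past 1.5-fold became 1 with the stricter cell filter, thinned, with TMM or with a minimum of 100 UMIs, and TMM turned H2-K1 to 0.029 and H2-T22 to 0.033. In monocyte-like cells class I was 0.064 thinned and 0.16 with TMM, and class II 0.055 with the stricter gate, 0.15 thinned, 0.17 with every cell weighing the same and 0.17 with TMM. In Acp5-high cells class I was -0.19 with the stricter cell filter, -0.29 with none, -0.33 with the stricter gate, -0.32 thinned, -0.36 with every cell weighing the same and -0.23 with TMM. Class II there was 0.77, 0.27, -0.14, 0.052 and -0.14 under the first 5 of these and 0.0022 without the top 1%. The genes followed: with the stricter gate H2-Ab1 was -0.22, H2-Aa -0.16 and Cd74 -0.18, thinned H2-Ab1 was -0.092 and Cd74 -0.27, with no cell filter Cd74 was -0.0020, and with every cell weighing the same H2-DMb1 was -0.46, H2-Ab1 -0.12, H2-Aa -0.19, H2-Eb1 -0.070 and Cd74 -0.29. In collagen-expressing cells class I was -0.36 with the stricter cell filter, -0.42 with the stricter gate, -0.34 with cells of 2 lineages kept, -0.42 thinned, -0.45 with every cell weighing the same, -0.31 with TMM and -0.41 without the top 1%. Class II there was 0.39, -0.069 and 0.29 under the first 3, 0.70 with every cell weighing the same and 1.25 without the top 1%, and H2-Aa was -0.22 and H2-Eb1 -0.15 with the stricter gate, H2-DMb2 -0.29 with every cell weighing the same and Psmb10 0.028 thinned. For genes with at least 100 UMIs in a class, 736 of 791 ratios under 7 settings kept their sign and 55 turned, 17 of them where the interval had left out 1. Apart from the TMM construction and the left-out cells, the cause was not tested. With 1 library per group, intervals say nothing of the spread between mice.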
